A study of Homo sapiens with 12 samples.

Results

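The rows described here are the box H/ACA small nucleolar RNAs (SNORA) and the Cajal body RNAs (SCARNA) of an RNA-seq study of THZ1, a covalent inhibitor of CDK7 that also inhibits CDK12 and CDK13, in ovarian cancer cells. They were chosen by name and level: of 129 rows whose names begin with SNORA or SCARNA and a digit, the 97 with more than 1 FPKM in at least 1 of 12 libraries were kept, 84 of them SNORA and 13 SCARNA, out of 14251 rows of any kind that reach that level. FPKM counts fragments relative to the length of a transcript and to the size of the library, and was rescaled here by the authors to ERCC spike-in RNA that had been added to RNA from equal numbers of cells. The members were picked with these same FPKM values, so their being detected is not a finding. KURAMOCHI (Ku) and COV362 (Cov), human ovarian cancer cell lines labelled as untransduced controls, received DMSO, 50 nM THZ1 or 250 nM THZ1 for 6 hr, with 2 libraries per condition labelled biological duplicates. Ku grew in RPMI and Cov in DMEM, both with fetal bovine serum and antibiotics, and the labels give no other agent or allele. The tables of the lines were normalized separately, so levels are set side by side but not tested between lines.

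Box H/ACA RNAs fold into a pair of hairpins, each followed by a short motif, the box H in the hinge and the box ACA close to the 3′ end. With the proteins dyskerin (DKC1), NOP10, NHP2 and GAR1 they guide the change of chosen uridines to pseudouridine in ribosomal RNA. Most human members are cut out of introns of host genes after splicing, and many hosts make ribosomal proteins or parts of the translation machinery. Cajal body RNAs do the same work on spliceosomal small nuclear RNAs, but the name covers more than box H/ACA: SCARNA5, SCARNA6, SCARNA10 and SCARNA12 carry both box C/D and box H/ACA parts and SCARNA9 is of the box C/D kind, so the label box H/ACA does not hold for every SCARNA row.

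The sequences below are those of the members the results turn on that could be placed on the genome, with the box ACA in capitals where a script found these letters 1 to 5 bases before the annotated 3′ end. SNORA70, SNORA10, SNORA64, SNORA63 and SNORA4 are among the most abundant members, SNORA65 was higher in Cov at the higher dose with no value at the floor described below, SCARNA12 is the Cajal body RNA found in all libraries, and SNORA11D is printed because its sequence occurs a second time among the members. All are reference sequences from GRCh37 at the positions of the GENCODE annotation, written 5′ to 3′ on the gene's own strand.
SNORA70, chrX:153628622-153628756, plus strand, intron of RPL10: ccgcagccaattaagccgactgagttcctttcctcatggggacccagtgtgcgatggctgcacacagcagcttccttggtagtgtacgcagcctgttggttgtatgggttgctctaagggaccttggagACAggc
SNORA10, chr16:2012335-2012467, minus strand, intron of RPS2: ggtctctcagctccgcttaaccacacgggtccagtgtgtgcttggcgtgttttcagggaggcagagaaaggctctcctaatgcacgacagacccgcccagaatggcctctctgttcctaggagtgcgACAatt
SNORA64, chr16:2012974-2013107, minus strand, intron of RPS2: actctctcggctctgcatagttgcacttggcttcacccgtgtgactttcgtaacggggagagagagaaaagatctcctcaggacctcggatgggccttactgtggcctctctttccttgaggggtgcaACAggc
SNORA63, chr3:186505089-186505220, plus strand, intron of EIF4A2: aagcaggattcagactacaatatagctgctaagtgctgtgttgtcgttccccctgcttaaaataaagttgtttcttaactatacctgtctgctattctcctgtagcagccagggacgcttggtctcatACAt
SNORA4, chr3:186505401-186505538, plus strand, intron of EIF4A2: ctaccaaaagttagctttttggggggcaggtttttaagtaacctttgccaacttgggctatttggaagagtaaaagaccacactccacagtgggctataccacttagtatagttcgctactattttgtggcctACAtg
SNORA65, chr9:130210780-130210909, minus strand, intron of RPL12: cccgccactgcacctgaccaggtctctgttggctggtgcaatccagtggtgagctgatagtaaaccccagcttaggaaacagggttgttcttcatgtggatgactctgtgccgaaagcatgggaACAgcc
SCARNA12, chr12:7076500-7076769, minus strand, intron of PHB2: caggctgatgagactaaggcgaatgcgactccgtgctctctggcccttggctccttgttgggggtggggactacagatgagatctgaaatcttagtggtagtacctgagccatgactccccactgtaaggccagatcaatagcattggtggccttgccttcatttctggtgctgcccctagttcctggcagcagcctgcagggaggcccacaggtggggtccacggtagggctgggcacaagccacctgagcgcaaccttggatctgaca
SNORA11D, chrX:51933717-51933844, plus strand, intron of MAGED4: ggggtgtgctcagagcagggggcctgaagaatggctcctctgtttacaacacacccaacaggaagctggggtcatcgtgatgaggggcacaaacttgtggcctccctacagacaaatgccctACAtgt

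Of the 78 placed members whose sequence was searched, 65 (83.3%) held ACA 1 to 5 bases before the 3′ end and 56 held it exactly 3 bases before. The share was 59 of 68 among SNORA and 6 of 10 among SCARNA. SCARNA12 ends in these letters as annotated, with no base after them, and was not counted. On the opposite strand of the same members the letters occurred in 10.3%, and among 375 annotated SNORD genes, the box C/D class, they occurred in 5.33% on the gene's strand and in 10.4% on the other. The name and the motif thus went together for most members.

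Some members cannot be told from one another by sequence. SNORA11D and SNORA11E, in introns of MAGED4 and MAGED4B, are identical over all 128 bases, and their FPKM were equal in all 12 libraries. No other pair of members was equal throughout. SNORA7A and SNORA7B share 137 of 139 aligned bases, SNORA11B and SNORA11D 115 of 129, SNORA70 and SNORA70E 117 of 135, SNORA71C and SNORA71D 115 of 134, SNORA71A and SNORA71C 113 of 136, and SNORA2A and SNORA34 75.9% of theirs. Their rows may share reads and are uncertain for that reason. SNORA70E was off the floor in 1 library, at 9.98 FPKM in Cov at 250 nM. The neighbours SNORA10 and SNORA64 share 90 of 143 aligned bases and had equal values in 1 of 12 libraries.

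Most values of the members sat on a floor. The tables hold no zeros, and the 129 matching rows took values either up to 0.181 FPKM or from 0.3 FPKM up, so a value below 0.2 FPKM is called the floor here and is read as not detected. Of 1164 member values, 680 (58.4%) were at the floor. Of the 97 members, 13 were off the floor in 1 library only and 3 in all 12, namely SNORA63, SNORA70 and SCARNA12. Replicates of a condition often disagreed on detection: between 30 and 36 members per condition were off the floor in 1 of the 2 libraries, against 26 found in both Ku DMSO libraries and 42 in both Cov DMSO libraries. In the map of all members the grey cells of the floor fill most of the lower rows, and neighbouring replicate columns differ there.

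**Figure D1:**
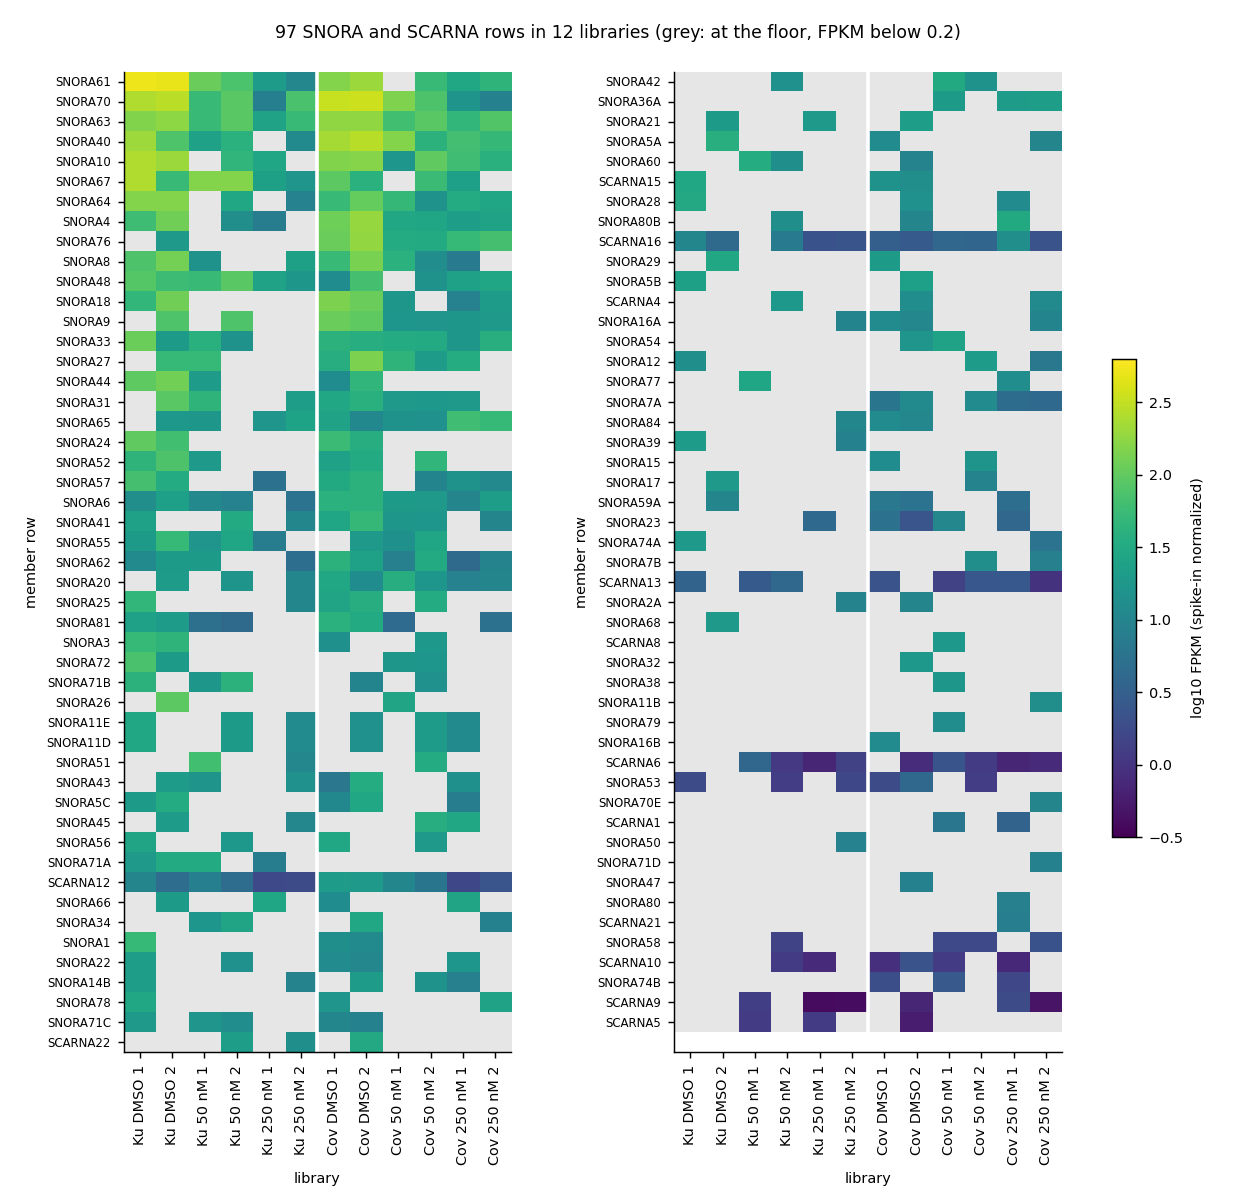
Each line is 1 of the 97 members, ordered by its mean over 12 libraries, and each column 1 library. Colour gives log10 FPKM and grey marks values at the floor, which make up 58.4% of the cells. The top lines, led by SNORA61 and SNORA70, are brightest in the DMSO columns.

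The lowest value off the floor differed with length. For the 78 members of 120 to 140 nt the median of this lowest value was 11.8 FPKM, for the 10 members of 147 to 200 nt it was 4.65 FPKM, and for the 9 longer members 0.968 FPKM. Per library, the lowest value of a short member was 19.2 and 18.2 FPKM in Ku DMSO and 7.74 and 9.02 FPKM at 250 nM, whereas in Cov it was 6.0 and 8.84 FPKM in DMSO, 13.0 and 9.37 FPKM at 50 nM and 4.64 and 4.2 FPKM at 250 nM. No member of 120 to 140 nt had a value between the floor and 4.2 FPKM, whereas the limit of 1 FPKM divided the long rows. The members just inside it were SCARNA5 with 1.20 FPKM in its highest library, SCARNA9 with 1.86 FPKM and SNORA58 with 2.16 FPKM. Just outside it lay SCARNA2 with 0.619 FPKM, SCARNA7 with 0.568 FPKM and SCARNA17 with 0.527 FPKM, and 28 matching rows were at the floor throughout. The libraries were made from polyadenylated RNA, which mature H/ACA RNAs are not, so the part of a value that comes from the finished RNA, from a tailed precursor or from the host intron cannot be told apart. Depth is unknown, since the tables hold no counts.

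**Figure D2:**
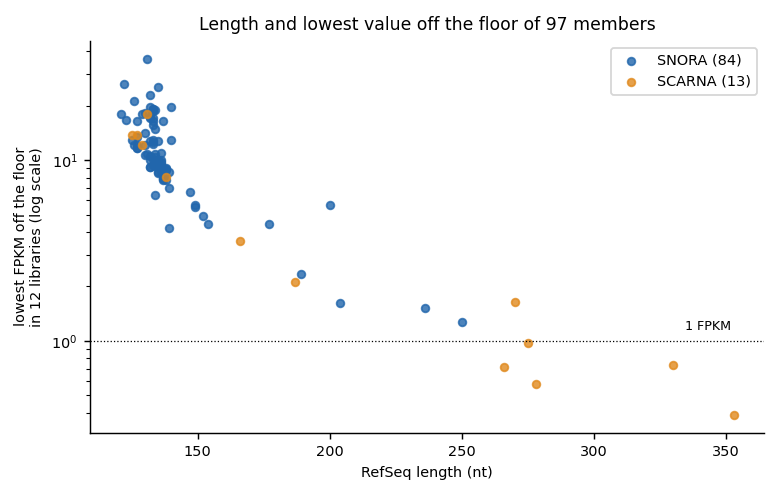
The x axis gives RefSeq length in nt and the y axis, on a log scale, the lowest FPKM off the floor over 12 libraries. Blue points are the 84 SNORA and orange points the 13 SCARNA members. The dotted line at 1 FPKM separates no short member, and 5 of the 13 SCARNA members have their lowest value under it.

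The lines were checked against markers. PAX8, the Müllerian lineage factor, stood at 136.1 ± 5.5 FPKM (SD, n = 2) in Ku DMSO and at 124.1 ± 5.33 FPKM in Cov DMSO, and KRT8, KRT18 and MSLN were present in both. WT1 stood at 60.1 and 53.4 FPKM in Ku DMSO but at 0.565 and 0.741 FPKM in Cov DMSO, and MUC16 was at most 0.172 FPKM in Ku. EPCAM stood at 4.01 and 4.24 FPKM in Ku DMSO and 149.9 and 174.1 FPKM in Cov DMSO, and CDH1 at 0.559 and 0.377 FPKM and 4.21 and 4.7 FPKM. KRT7 differed as well, with 4.68 and 4.54 FPKM in Ku DMSO and 1286.9 and 1423.1 FPKM in Cov DMSO. PTPRC, PECAM1 and ALB, markers of leukocytes, endothelium and hepatocytes, were at most 0.378 FPKM in all 12 libraries.

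Summed over all 97 members, the FPKM were lower in every THZ1 library than in both DMSO libraries of the line. In Ku the sum was 3233.1 and 3010.7 FPKM in DMSO, 964.1 and 1081.3 FPKM at 50 nM and 238.7 and 446.5 FPKM at 250 nM. In Cov it was 2475.4 and 3155.7 FPKM in DMSO, 995.1 and 1134.2 FPKM at 50 nM and 849.7 and 729.5 FPKM at 250 nM. No THZ1 library reached the DMSO libraries of its line, and in both lines the libraries of the higher dose lay below those of the lower dose. The mean at 50 nM was 0.328 times that of DMSO in Ku and 0.378 times in Cov, and at 250 nM it was 0.11 times in Ku and 0.28 times in Cov. Each of the 4 comparisons gave an exact two-sided permutation p = 0.333, the smallest that 2 libraries against 2 can give. In these bulk libraries fewer cells that hold an RNA and less of it in each cell cannot be told apart.

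The sum of all rows was lowered by less. All rows together kept 0.812 and 0.516 of their DMSO sum in Ku at 50 and 250 nM, and 0.712 and 0.482 in Cov. The members' share of the sum went from 0.262% and 0.245% in Ku DMSO to 0.0942% and 0.111% at 50 nM and to 0.036% and 0.0736% at 250 nM. In Cov it went from 0.168% and 0.187% to 0.0946% and 0.0948%, and then to 0.112% and 0.0955%. The share does not depend on the scale of a library, and in both lines it was lower in all 4 THZ1 libraries than in both DMSO libraries (exact permutation p = 0.333 in each comparison). When libraries were instead scaled to an equal median FPKM, the summed members kept 0.537 and 0.428 of the DMSO sum in Ku and 0.885 in Cov at 50 nM. In Cov at 250 nM the ratio turned to 1.19, and both THZ1 libraries lay above both DMSO libraries. With median-of-ratios scaling the ratios were 0.484 and 0.3 in Ku and 0.774 and 0.863 in Cov, where the libraries at 250 nM overlapped DMSO. In Ku the THZ1 libraries lay below DMSO under all 3 scales, and in Cov at 250 nM they did so under the spike-in scale only.

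A few members made up much of the sum. The 5 largest held between 33.1% and 54.0% of it in each library. Fewer members were found as well: 45 and 42 were off the floor in Ku DMSO, 30 and 35 at 50 nM and 20 and 32 at 250 nM, and in Cov the counts were 52 and 62, then 37 and 45, then 46 and 38. The plot of totals shows that in Cov the number found did not go on falling between the doses.

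**Figure D3:**
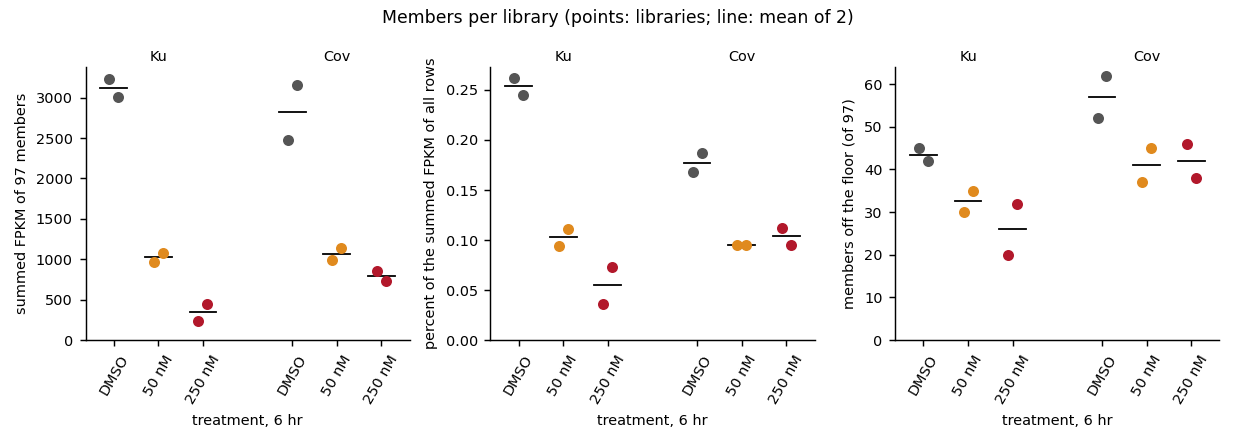
The panels give, for each library, the summed FPKM of the 97 members, this sum as a percent of all rows, and the number of members off the floor. Points are libraries and the black line is the mean of 2. In both lines every THZ1 point of the left and middle panels lies below the DMSO points.

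The most abundant member in Ku was SNORA61, from within the non-coding host SNHG12. It stood at 515.8 and 485.6 FPKM in Ku DMSO, at 110.3 and 73.2 FPKM at 50 nM and at 20.4 and 10.7 FPKM at 250 nM. The 3 groups did not overlap and were ordered by dose. On the log2(FPKM + 1) scale the difference was −2.46 ± 0.31 (SE) at 50 nM (limma, adjusted p = 0.00155, not called) and −4.99 ± 0.31 at 250 nM (limma, adjusted p = 2.43e-05), a call that stayed without any single library and under both other scales. In Cov it stood at 154.1 and 204.0 FPKM in DMSO, at the floor and 55.1 FPKM at 50 nM, and at 29.7 and 44.0 FPKM at 250 nM. All 4 treated libraries lay below DMSO, but with 1 replicate at the floor the standard error was 1.55 and neither dose was called (limma, adjusted p = 0.0258 at 50 nM and 0.198 at 250 nM). Without either 50 nM library the difference of −2.26 at 250 nM was called (limma, adjusted p = 2.64e-06 and 2.61e-06).

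SNORA44, from the same host, was at 95.7 and 124.2 FPKM in Ku DMSO and at the floor in both libraries at 250 nM, with 20.4 FPKM and the floor at 50 nM. In Cov it went from 12.8 and 47.1 FPKM to the floor in all 4 THZ1 libraries (limma, adjusted p = 1.10e-04 at 50 nM and 5.89e-05 at 250 nM), calls that neither other scale kept (limma, adjusted p from 0.00122 to 0.00342). The third member there, SNORA16A, was at the floor in 5 of 6 Ku libraries, with 9.85 FPKM in 1 library at 250 nM, and in Cov it had 12.5 and 10.8 FPKM in DMSO and 9.7 FPKM in 1 library at 250 nM, with the other 3 THZ1 libraries at the floor. The row of SNHG12 itself was at 78.0 and 69.9 FPKM in Ku DMSO and 3.01 and 4.64 FPKM at 250 nM, and at 32.9 and 36.8 FPKM in Cov DMSO and 4.63 and 3.99 FPKM at 250 nM. SNORA61, SNORA44 and the host row, but not SNORA16A, all lay below DMSO in every THZ1 library of both lines. The host came from a RefSeq table that gives no strand.

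SNORA70 led in Cov. It lies in RPL10, which codes for a protein of the large ribosomal subunit. Its FPKM were 328.6 and 349.6 in Cov DMSO, 143.8 and 75.9 at 50 nM and 16.2 and 9.01 at 250 nM, and no library was at the floor. The groups again did not overlap and were ordered by dose, with differences of −1.69 ± 0.33 (limma, adjusted p = 0.00203, not called) and −4.69 ± 0.33 (limma, adjusted p = 6.91e-06). Under the equal-median and median-of-ratios scales the latter was −2.69 and −3.13 and no longer called (limma, adjusted p = 0.0018 and 0.00109). In Ku it stood at 256.6 and 286.4 FPKM in DMSO, 54.8 and 90.8 FPKM at 50 nM and 8.47 and 70.3 FPKM at 250 nM. The replicates at 250 nM lay far apart, and the difference of −3.39 ± 0.88 was not called (limma, adjusted p = 0.0104). It was −1.93 without the first library at 250 nM (limma, adjusted p = 0.00171) and −4.85 and called without the second (limma, adjusted p = 1.52e-04). The host mRNA moved less: RPL10 stood at 420.3 and 382.9 FPKM in Ku DMSO and 310.4 and 287.4 FPKM at 250 nM, and was called lower only in Cov at 250 nM.

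RPS2, a gene of the small ribosomal subunit, holds SNORA10 and SNORA64 in its introns. SNORA10 was at 253.3 and 201.2 FPKM in Ku DMSO, at the floor and 47.5 FPKM at 50 nM, and at 27.2 FPKM and the floor at 250 nM. In Cov it was at 150.6 and 157.9 FPKM, then 17.2 and 97.9 FPKM, then 60.8 and 38.8 FPKM. SNORA64 was at 155.9 and 155.4 FPKM in Ku DMSO, at the floor and 30.5 FPKM at 50 nM, and at the floor and 9.29 FPKM at 250 nM. All treated libraries of both members lay below DMSO in both lines, yet neither passed the test in any comparison, with standard errors from 0.514 to 2.11 on the log2 scale. In Cov at 250 nM the difference changed sign when libraries were scaled to an equal median, to 0.41 for SNORA10 and 0.77 for SNORA64, and for SNORA64 also with median-of-ratios scaling, to 0.32. RPS2 itself was at 3207.1 and 3160.5 FPKM in Ku DMSO and 2345.9 and 2228.3 FPKM at 250 nM and was not called in any comparison.

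EIF4A2, which codes for an RNA helicase of translation initiation, holds SNORA63, SNORA4 and SNORA81. SNORA63 was off the floor everywhere, with 149.9 and 172.0 FPKM in Ku DMSO, 54.8 and 90.9 FPKM at 50 nM and 25.3 and 52.7 FPKM at 250 nM. In Cov it had 177.5 and 180.3 FPKM, then 63.8 and 90.8 FPKM, then 48.4 and 81.1 FPKM. The 2 doses overlapped in Cov but neither overlapped DMSO. The difference of −1.50 ± 0.25 in Cov at 250 nM was called (limma, adjusted p = 7.32e-04) and turned to 0.56 and 0.10 under the equal-median and median-of-ratios scales. In Ku the differences of −1.17 ± 0.37 and −2.11 ± 0.37 were not called (limma, adjusted p = 0.0386 and 0.00194).

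SNORA4 was at 118.6 and 188.8 FPKM in Cov DMSO, 29.7 and 28.2 FPKM at 50 nM and 22.6 and 25.1 FPKM at 250 nM. Both treated groups lay far below DMSO with close replicates, and both differences, −2.33 ± 0.20 and −2.60 ± 0.20, were called (limma, adjusted p = 4.65e-05 and 9.86e-06). SNORA55, also of 137 nt, had 28.1 FPKM in the second 50 nM library, where SNORA4 had 28.2 FPKM. Members of 1 length could thus take nearly the same value, which limits what close replicates show. Neither call of SNORA4 held under the equal-median and median-of-ratios scales, where the differences were −1.13 and −1.31 at 50 nM (limma, adjusted p = 0.00659 and 0.00391) and −0.57 and −1.02 at 250 nM (limma, adjusted p = 0.0393 and 0.00427). In Ku it had 59.7 and 121.0 FPKM in DMSO and 1 library of each dose at the floor. SNORA81 was called in Ku at 50 nM, where it went from 24.7 and 21.0 FPKM to 5.21 and 4.41 FPKM, a difference of −2.04 ± 0.15 (limma, adjusted p = 3.51e-04), and at 250 nM both libraries were at the floor. The host EIF4A2 was called lower in all 4 comparisons, and kept 0.419 and 0.412 of its DMSO level in Ku and 0.314 and 0.297 in Cov.

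SNORA67, in the related helicase gene EIF4A1, was not lower in Ku at the low dose, and neither was SNORA48 in the same host, with 86.0 and 57.3 FPKM in DMSO and 54.8 and 90.7 FPKM at 50 nM. The FPKM of SNORA67 were 258.5 and 53.3 in Ku DMSO, 152.7 and 155.0 at 50 nM and 23.5 and 16.4 at 250 nM. The 50 nM libraries lay between the DMSO replicates, which differed widely, and the 250 nM libraries lay below both. In Cov it went from 93.8 and 40.6 FPKM to the floor and 56.2 FPKM and then to 22.9 FPKM and the floor. Neither dose passed the test in either line (limma, adjusted p from 0.0119 to 0.658).

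TAF1D, which codes for a subunit of the RNA polymerase I selectivity factor, holds 6 members, more than any other host. SNORA40, the most abundant, was at 204.6 and 77.1 FPKM in Ku DMSO, 24.8 and 40.6 FPKM at 50 nM, and at the floor and 12.1 FPKM at 250 nM. In Cov it was at 224.6 and 277.1 FPKM, then 152.7 and 41.3 FPKM, then 66.1 and 49.2 FPKM. All 4 treated libraries lay below DMSO in each line, and no difference was called. SNORA18 fell in Ku from 47.7 and 123.0 FPKM to the floor in all 4 THZ1 libraries (limma, adjusted p = 3.21e-04 at 50 nM, a call lost under both other scales, and 2.89e-05 at 250 nM), and SNORA1 fell in Cov from 14.0 and 12.1 FPKM to the floor in all 4 (limma, adjusted p = 3.45e-06 and 8.16e-07, in a member above 1 FPKM only in DMSO libraries). In Cov SNORA18 stood at 142.3 and 112.4 FPKM in DMSO with 17.8 FPKM and the floor at 50 nM and 9.21 and 20.3 FPKM at 250 nM. Together the 6 members went from 428.2 and 331.1 FPKM in Ku DMSO to 0.396 and 46.2 FPKM at 250 nM, and the host TAF1D was called lower in all 4 comparisons.

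**Figure D4:**
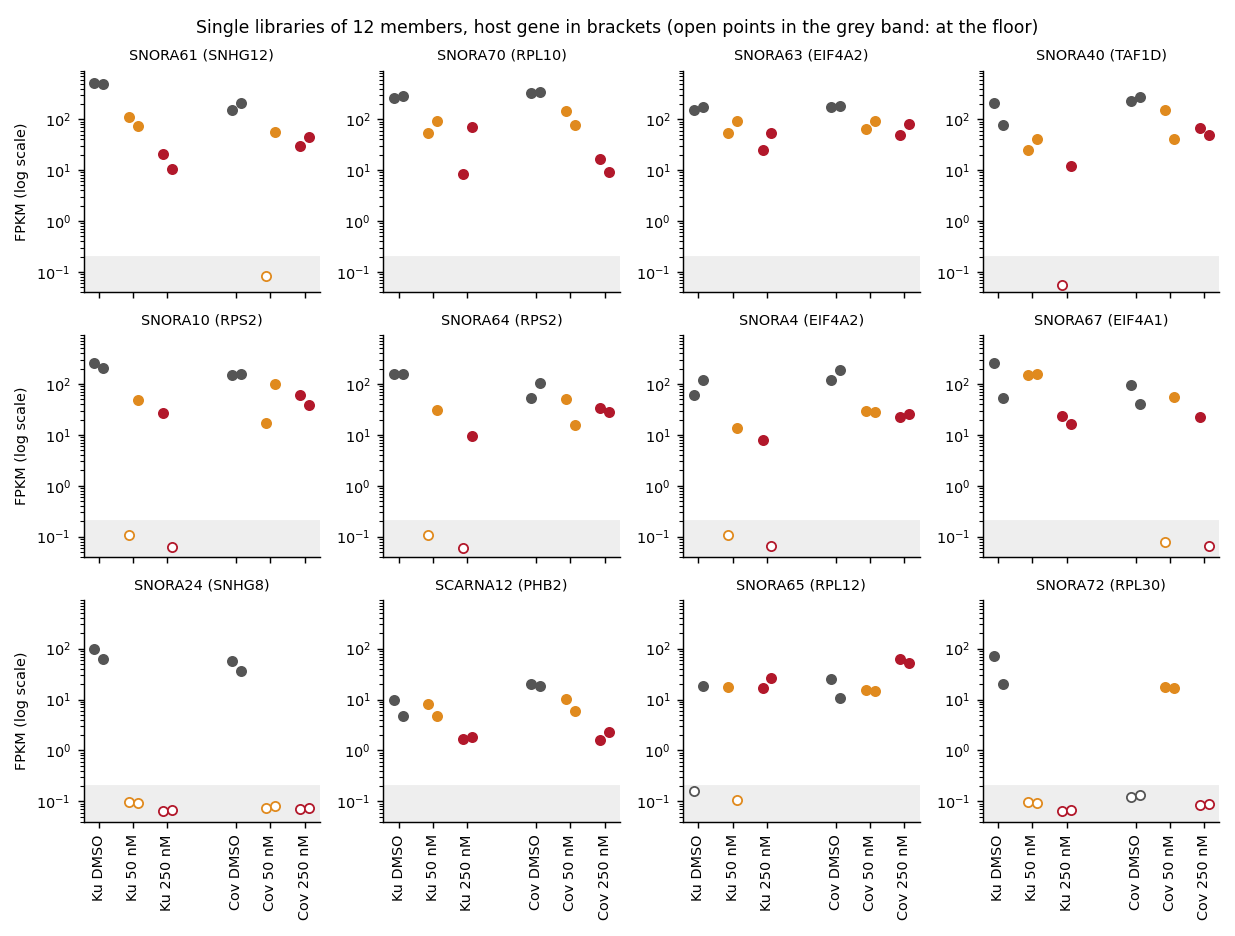
Each panel is 1 member with its host in brackets, and each point 1 library on a log FPKM axis, grouped by line and dose. Open points in the grey band are at the floor. SNORA61 in Ku and SNORA70 in Cov step down with dose, from 515.8 and 485.6 to 20.4 and 10.7 FPKM and from 328.6 and 349.6 to 16.2 and 9.01 FPKM, whereas SNORA65 in Cov lies highest at 250 nM.

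Few members passed the test gene by gene. A row was called at a Benjamini-Hochberg adjusted p under 0.001 and a log2 difference beyond 0.5, in a limma fit of all 14251 rows per line. In Ku, 6 of the 97 members were called lower and 2 higher at 50 nM, where 11.3% of all rows were called lower and 0.0842% higher. At 250 nM, 8 were lower and 0 higher, against 68.6% and 0.0491% of all rows. In Cov, 9 were lower and 2 higher at 50 nM, against 70.5% and 0.0772%, and 11 were lower and 0 higher at 250 nM, against 84% and 0.105%. The called lower share of the members was 6.19% and 8.25% in Ku and 9.28% and 11.3% in Cov. Members were measured less precisely than other rows: the median standard error of a member was 0.987 in Ku and 0.921 in Cov on the log2 scale, against 0.119 and 0.106 over all rows. At an unadjusted p under 0.05, 14 and 22 members were lower and 3 and 0 higher in Ku, and 26 and 27 were lower and 4 and 2 higher in Cov, where 61% and 89.6% of all rows were lower in Ku and 91.5% and 92.8% in Cov, and 1.46%, 0.182%, 0.4% and 0.309% were higher. The order against all rows turned with the scale at 50 nM: with libraries scaled to an equal median, 3.09% of the members and 0.589% of all rows were called lower in Ku, and 5.15% and 0.154% in Cov. The counts moved with single libraries: leaving out 1 at a time gave 1 to 12 lower calls in Ku at 50 nM, 8 to 19 in Ku at 250 nM, 11 to 20 in Cov at 50 nM and 12 to 24 in Cov at 250 nM. Of all rows, 0.0421% to 0.919%, 42.7% to 63.5%, 30.3% to 69.7% and 73.3% to 86.6% were then called lower, so that in Ku at 50 nM the share of members called lower, from 1.03% to 12.4%, lay above that of all rows whichever library was left out. The highest counts came without either DMSO library, the second DMSO library, the second 50 nM library and either 50 nM library, in that order, and the 1 in Ku came without the second 50 nM or either 250 nM library. In Ku at 50 nM, 1 of the 8 calls, SNORA3, held without any one library. Of the other calls, 6 of 8 held in Ku at 250 nM, 11 of 11 in Cov at 50 nM and 10 of 11 in Cov at 250 nM.

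Most calls were of members not detected under THZ1. Of the members called lower, 5 of 6, 7 of 8, 6 of 9 and 6 of 11, in the order above, had both THZ1 libraries at the floor, and only 1, 1, 3 and 5 had no library at the floor. For a member with a group at the floor the values are given, since a fitted difference then depends on the pseudocount. Of the called members, SNORA24, SNORA1 and SCARNA15 passed 1 FPKM only in DMSO libraries and SNORA42 only in 50 nM libraries. They entered the set through the group in which they are high and had to differ in that direction, so their p-values are given as a description. SNORA24 was the only member called lower in both lines and at both doses. It comes from the non-coding host SNHG8 and stood at 99.5 and 63.5 FPKM in Ku DMSO and 56.4 and 36.5 FPKM in Cov DMSO, and it was at the floor in all 8 THZ1 libraries (limma, adjusted p from 8.16e-07 to 1.56e-04). Its host was called lower in all 4 comparisons but stayed well off the floor, with 68.8 and 71.3 FPKM in Ku at 250 nM from 191.9 and 162.8 FPKM in DMSO.

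Among the other members called lower at 250 nM in Ku, SNORA3 in RPL27A went from 51.6 and 43.8 FPKM to the floor in all 4 THZ1 libraries (limma, adjusted p = 3.61e-05 at 50 nM and 5.42e-06 at 250 nM). SNORA5C in TBRG4, a mitochondrial RNA-binding protein gene, went from 19.8 and 33.5 FPKM to the floor in all 4 (limma, adjusted p = 2.23e-04, lost under the equal-median scale, and 1.39e-05). SNORA33 in RPS12 was at 114.6 and 19.7 FPKM in DMSO, at 39.0 and 15.7 FPKM at 50 nM and at the floor in both libraries at 250 nM (limma, adjusted p = 8.24e-04). The call of SNORA33 was lost under both other scales (limma, adjusted p = 0.00201 and 0.0027) and without the first DMSO library or either 250 nM library. The first 2 did not overlap DMSO at either dose, while SNORA33 overlapped it at 50 nM. In Cov none of the 3 was called.

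In Cov at 250 nM, SCARNA15 (15.8 and 13.7 FPKM in DMSO), SNORA84 (12.4 and 10.7 FPKM) and SNORA71C (10.2 and 8.84 FPKM) were called lower with all 4 THZ1 libraries at the floor, SCARNA15 being above 1 FPKM only in DMSO libraries. The lowest values that short members took in those DMSO libraries were 6.0 FPKM, for SNORA7A of 139 nt, and 8.84 FPKM. SNORA16B and SNORA66, of 133 nt like SNORA84, had 12.3 and 12.9 FPKM in the first library and were at the floor in the second. SNORA84 thus lay near values at which members were found in a single DMSO library of Cov. Each called row's standard error was from 0.0904 to 0.0941, which with values so low is no sign of a precise level. SNORA9, in the non-coding host SNHG15, had 110.1 and 97.2 FPKM in Cov DMSO, 17.2 and 16.5 FPKM at 50 nM and 17.4 and 19.3 FPKM at 250 nM, differences of −2.55 ± 0.10 and −2.43 ± 0.10 with no library at the floor (limma, adjusted p = 1.90e-05 and 9.71e-07). Under the equal-median and median-of-ratios scales the differences of SNORA9 were −1.36 and −1.54 at 50 nM and −0.41 and −0.86 at 250 nM, and none was called (limma, adjusted p from 0.00128 to 0.0261). SNORA76, for which no host was found, had 109.8 and 182.2 FPKM in Cov DMSO and 34.3 and 32.6 FPKM at 50 nM, a difference of −2.05 ± 0.23 (limma, adjusted p = 1.41e-04) that was not called under either other scale (limma, adjusted p = 0.0317 and 0.0158). It had 52.1 and 68.0 FPKM at 250 nM and was at the floor in 5 of 6 Ku libraries. SNORA33, of 133 nt like SNORA9 and SNORA76, also had 34.3 and 32.6 FPKM in Cov at 50 nM, which limits what their small standard errors show.

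The median of the members rests largely on values at the floor. All 4 libraries of a comparison were at the floor for 23 and 25 members in Ku and 11 and 12 in Cov, and no library was for 11 and 7 in Ku and 19 and 20 in Cov. The median log2 difference of the 97 members was −0.21 and −1.04 in Ku and −1.07 and −1.23 in Cov, beside −0.40, −1.11, −0.85 and −1.31 over all rows. Scaling to an equal median shifted the median of all rows to 0.11, 0.30, 0.13 and 0.33, and that of the members to 0.04, 0.12, −0.07 and 0.18, so that the sign of the members' median turned in 3 of 4 comparisons. Counting libraries only, and setting floor values equal, both THZ1 libraries lay below both DMSO libraries for 18 and 26 members in Ku (72.6% and 91.9% of all rows) and for 30 and 35 members in Cov (93.4% and 94.3% of all rows). They did so in both lines for 15 members at 50 nM and for 19 at 250 nM (70.4% and 88.9% of all rows). The 19 were SCARNA12, SNORA4, SNORA5C, SNORA6, SNORA8, SNORA10, SNORA18, SNORA24, SNORA40, SNORA44, SNORA52, SNORA57, SNORA61, SNORA62, SNORA63, SNORA64, SNORA67, SNORA70 and SNORA81.

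Members that were higher under THZ1 were few and mostly rested on detection. Both THZ1 libraries lay above both DMSO libraries for 3 and 2 members in Ku (3.36% and 0.372% of all rows) and for 5 and 2 in Cov (0.653% and 0.519%), and for none in both lines at 250 nM (0.0842% of all rows). The 4 members called higher, all at 50 nM, had both DMSO libraries at the floor. In Ku, SNORA34 in KANSL2 reached 17.1 and 26.9 FPKM (limma, adjusted p = 2.23e-04) and SNORA60 in the non-coding host SNHG11 35.4 and 14.0 FPKM (limma, adjusted p = 5.47e-04), and both were back at the floor at 250 nM. In Cov, SNORA42 in KHDC4 reached 32.4 and 15.8 FPKM (limma, adjusted p = 2.27e-05, in a member above 1 FPKM only at 50 nM) and SNORA72 in RPL30 17.4 and 17.1 FPKM (limma, adjusted p = 9.15e-07). The calls of SNORA60 and SNORA42 were lost under both other scales. The lowest value a short member took in those 4 libraries lay between 9.37 and 15.9 FPKM, close to several of these. SNORA72 in Ku did the reverse, with 71.8 and 20.1 FPKM in DMSO and the floor in all 4 THZ1 libraries.

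SNORA65, chosen after its values were seen, was higher in Cov at 250 nM with no value of that line at the floor. It lies in RPL12 and had 25.0 and 10.9 FPKM in Cov DMSO, 15.3 and 14.7 FPKM at 50 nM and 62.3 and 51.9 FPKM at 250 nM. The libraries at 250 nM lay above all others of the line, by 1.71 ± 0.32 against DMSO (limma, adjusted p = 0.00136, not called at 0.001). In Ku it was found in 1 DMSO library at 18.2 FPKM, in 1 library at 50 nM at 17.9 FPKM and in both at 250 nM at 16.6 and 26.3 FPKM, a difference of 2.21 ± 1.69 that did not pass (limma, adjusted p = 0.249). RPL12 itself was at 7257.0 and 8433.6 FPKM in Cov DMSO and 4748.0 and 4865.7 FPKM at 250 nM, so the host was lower in the libraries in which the member was higher.

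The 13 SCARNA members differed among themselves. SCARNA12, in PHB2, a prohibitin gene, was found in all libraries: 10.0 and 4.85 FPKM in Ku DMSO, 8.32 and 4.80 FPKM at 50 nM and 1.71 and 1.84 FPKM at 250 nM. In Cov it had 20.2 and 18.7 FPKM, then 10.2 and 5.99 FPKM, then 1.64 and 2.35 FPKM. Doses and DMSO were separate in Cov, with a difference of −2.78 ± 0.23 at 250 nM (limma, adjusted p = 1.38e-05), which was no longer called under the equal-median and median-of-ratios scales (limma, adjusted p = 0.02 and 0.00629), and in Ku the 250 nM libraries lay below the others.

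SCARNA6, with SCARNA5 in the autophagy gene ATG16L1, was at the floor in both Ku DMSO libraries and then at 3.91 and 1.11 FPKM at 50 nM and 0.716 and 1.40 FPKM at 250 nM. In Cov it was at the floor and 0.838 FPKM in DMSO, 2.25 and 1.17 FPKM at 50 nM and 0.718 and 0.802 FPKM at 250 nM. It was the only member with both 50 nM libraries above both DMSO libraries in both lines (0.323% of all rows), without passing the test (limma, adjusted p = 0.0198 in Ku and 0.0127 in Cov), while ATG16L1 was called lower in 3 of 4 comparisons. SCARNA5 was found in 3 libraries, at 1.20 FPKM in 1 Ku library of each dose and 0.577 FPKM in 1 Cov DMSO library.

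SCARNA16, in SEC14L1, was off the floor in 11 libraries, with 10.4 and 4.41 FPKM in Ku DMSO against 2.12 and 2.26 FPKM at 250 nM, and with 3.18 and 2.75 FPKM in Cov DMSO against 13.5 and 2.24 FPKM at 250 nM. SCARNA13, in the non-coding host SNHG10, was found in 8 libraries between 0.968 and 4.13 FPKM. For both, replicates within a group lay as far apart as groups did. SCARNA10 in NCAPD2 and SCARNA9 in CEP295 were found in 6 libraries each and never above 2.23 FPKM, and both were at the floor in both Ku DMSO libraries.

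The other SCARNA members appeared in few libraries. SCARNA22 in NSD2 and SCARNA4 in KHDC4 were each found in 3 libraries, up to 30.8 and 18.1 FPKM. SCARNA15, within FSD2, was found in 1 Ku DMSO library at 29.3 FPKM and in both Cov DMSO libraries. The row of SCARNA1 in PPP1R8 was found in 2 Cov libraries, at 6.19 FPKM at 50 nM and 3.58 FPKM at 250 nM, SCARNA8 in HAUS6 in 1 Cov library at 18.1 FPKM and SCARNA21 in CHD3 in 1 Cov library at 8.07 FPKM. Nothing can be said of treatment from single libraries. The summed SCARNA members kept 1.18 and 0.426 of their DMSO sum in Ku and 0.455 and 0.414 in Cov, with 1 Ku DMSO library at 54.5 FPKM and the other at 10.6 FPKM.

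Where the members lie was examined for all 97. A surrounding gene was found for 94, in 70 hosts, and 16 hosts held several members, 40 in all. On GRCh37, 79 members could be placed, 77 of them in an intron, SNORA31 over an exon of TPT1 and SNORA7B outside a host. The other 18 could not be placed, and 16 of them took their host from RefSeq without strand. For 46 members the name has several GENCODE copies. The 68 host rows that reached 1 FPKM were called lower in 12 and 50 cases in Ku and 48 and 62 in Cov, which is 17.6%, 73.5%, 70.6% and 91.2% beside 11.3%, 68.6%, 70.5% and 84% of all rows, and higher in none (limma, 0 also at an unadjusted p under 0.05). Their median log2 difference was −0.32 and −1.18 in Ku and −0.82 and −1.35 in Cov, close to that of all rows, and turned to 0.37, 0.71, 0.27 and 0.64 under the equal-median scale.

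Members and hosts were then summed by class of host, where each ratio of member to host is free of the library's scale. The 16 members in 13 ribosomal protein genes went from 985.2 ± 15.2 FPKM (SD, n = 2) in Ku DMSO to 204.7 ± 14.0 FPKM at 50 nM and 113.6 ± 20.2 FPKM at 250 nM. Their hosts went from 23862.9 ± 1168.4 FPKM to 23483.6 ± 420.7 FPKM and 18975.7 ± 1118.4 FPKM. The members thus kept 0.208 and 0.115 of their DMSO level in Ku while the host mRNAs kept 0.984 and 0.795. In Cov the members kept 0.463 and 0.295 and the hosts 0.695 and 0.603. Of the 4 classes, these hosts kept the largest share of their mRNA in all 4 comparisons.

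The 16 members in SNHG and other non-coding hosts kept 0.24 and 0.0426 of their DMSO sum in Ku and 0.157 and 0.216 in Cov, and their hosts kept 0.506 and 0.355 in Ku and 0.591 and 0.467 in Cov. The 8 members in translation factor genes kept 0.619 and 0.166 in Ku and 0.343 and 0.263 in Cov, beside 0.837, 0.598, 0.607 and 0.455 for the hosts. The 54 members in other genes kept 0.341 and 0.146 in Ku and 0.434 and 0.283 in Cov, beside 0.869, 0.575, 0.619 and 0.447. In each of the 4 classes and 4 comparisons the summed members kept less of their DMSO sum than the summed hosts, but different loci lead the sums. A count host by host turned on which hosts were counted. With members off the floor in both DMSO libraries, a choice that favours members high in DMSO, the members kept less than their host in 15 and 16 of 17 hosts in Ku and in 21 and 17 of 28 in Cov. Over all 68 host rows, many of them with members at the floor in DMSO, they did so in 39 and 36 in Ku and in 32 and 25 in Cov. The members in SNHG12 kept 0.19 of their DMSO sum in Cov at 250 nM beside 0.124 for SNHG12, and those in EIF4A1 kept 0.996 in Ku at 50 nM beside 0.825 for EIF4A1. With 2 libraries per group an exact test of any of these cannot go below p = 0.333, and differences between classes were not tested.

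**Figure D5:**
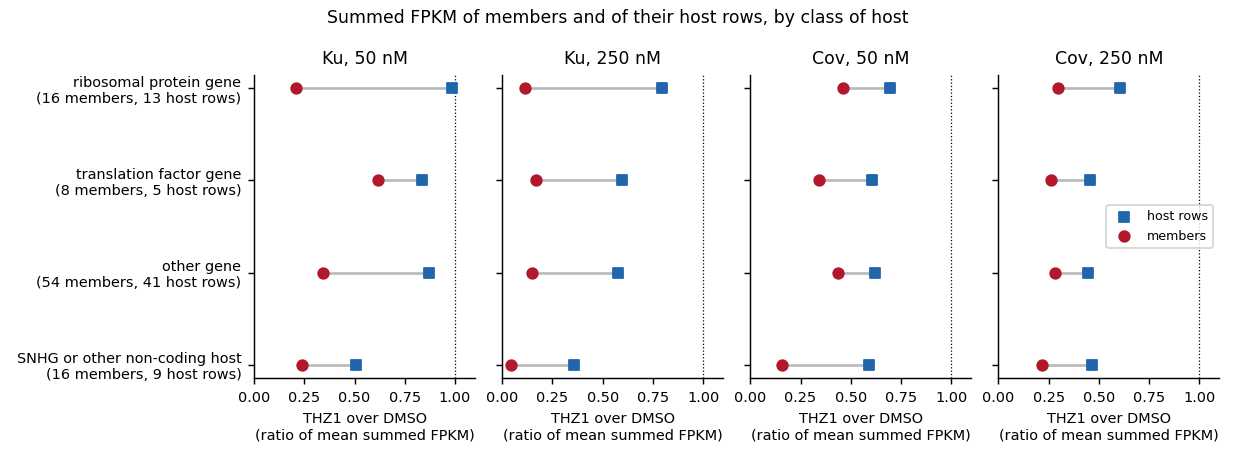
Each panel is 1 comparison, with the ratio of mean summed FPKM in THZ1 to DMSO on the x axis and the class of host on the y axis. Red points are members and blue squares their host rows. Every red point lies left of its blue square, as for ribosomal protein hosts in Ku at 50 nM, with 0.208 against 0.984.

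The mRNAs of the H/ACA particle's core proteins lay lower as well on the spike-in scale, by about as much as the table. No protein was measured, and protein names below stand for mRNA rows. Of the 4 core protein mRNAs, limma called 0 lower in Ku at 50 nM (3 at an unadjusted p under 0.05) and 4 of 4 in the other 3 comparisons. Of all rows, 11.3% were called lower in Ku at 50 nM and 68.6%, 70.5% and 84% in the others. DKC1, the pseudouridine synthase, was at 83.1 and 76.6 FPKM in Ku DMSO, 67.3 and 59.4 FPKM at 50 nM and 33.2 and 32.5 FPKM at 250 nM, a difference of −1.25 ± 0.08 at the high dose (limma, adjusted p = 2.90e-05). In Cov it went from 145.6 and 163.3 FPKM to 84.8 and 96.6 FPKM and 46.5 and 46.5 FPKM, a difference of −1.71 ± 0.10 at the high dose (limma, adjusted p = 2.74e-06). Its introns hold SNORA36A and SNORA56, which were found in 3 and 4 libraries.

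GAR1 fell most of the 4, by 1.81 ± 0.19 in Ku and 1.88 ± 0.13 in Cov at 250 nM (limma, adjusted p = 1.66e-04 and 6.72e-06), and NHP2, which binds the RNA's hairpins, least, by 0.73 ± 0.09 and 0.89 ± 0.09 (limma, adjusted p = 3.50e-04 and 3.42e-05). NOP10, the smallest of the core, fell by 0.94 ± 0.13 and 1.34 ± 0.08 (limma, adjusted p = 5.20e-04 and 3.71e-06). The median of the core proteins was −0.33 and −1.10 in Ku and −0.81 and −1.52 in Cov, near that of all rows, and its sign turned under both other scales, to 0.37, 0.86, 0.40 and 0.54 with an equal median.

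For the lists that follow, the share of all rows called lower is 11.3% and 68.6% in Ku and 70.5% and 84% in Cov. Of 6 assembly factors, limma called 0 and 6 lower in Ku, with 4 lower at an unadjusted p under 0.05 at 50 nM, and 4 and 6 in Cov. NAF1, which is replaced by GAR1 as the particle matures, went from 13.8 and 11.1 FPKM in Ku DMSO to 2.45 and 2.90 FPKM at 250 nM, and from 43.3 and 51.2 FPKM in Cov DMSO to 8.34 and 8.17 FPKM. SHQ1, a chaperone of dyskerin, went from 13.4 and 11.2 FPKM to 2.53 and 2.69 FPKM in Ku. The median of this list was positive under both other scales in all 4 comparisons, 0.36, 0.81, 0.38 and 0.58 with an equal median. Of 9 Cajal body proteins 1 and 8 were called lower in Ku and 8 and 9 in Cov, among them COIL, the scaffold coilin, with 19.8 and 18.7 FPKM in Ku DMSO and 0.986 and 1.31 FPKM at 250 nM. WRAP53, which carries Cajal body RNAs and telomerase RNA to that body, fell by 1.68 ± 0.10 in Ku and 1.54 ± 0.10 in Cov at 250 nM (limma, adjusted p = 1.86e-05 and 5.26e-06). The median of the Cajal body list was −0.67 and −1.68 in Ku and −1.25 and −2.15 in Cov, with an equal median 0.02, 0.17, −0.05 and −0.15, and with median-of-ratios scaling −0.13, −0.32, −0.24 and −0.59.

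Of 11 genes of RNA 3′ end maturation 2 and 11 were called lower in Ku and 11 and 11 in Cov, against the same shares of all rows. TOE1, an exonuclease that trims small nuclear and Cajal body RNAs, was at 29.1 and 26.8 FPKM in Ku DMSO and 5.09 and 5.73 FPKM at 50 nM, and was called with EXOSC3, a subunit of the RNA exosome. PARN, which removes oligo(A) tails from H/ACA RNAs, was at 28.1 and 22.6 FPKM and then 12.6 and 10.8 FPKM, and was not called in Ku at 50 nM (limma, adjusted p = 0.00166). This list lay below all rows at each dose, with medians of −0.88 and −1.62 in Ku and −1.27 and −2.20 in Cov, and its median stayed negative under both other scales. TERC, the H/ACA RNA of telomerase, was near 1 FPKM in DMSO, with 0.836 and 1.06 FPKM in Ku and 1.03 and 0.742 FPKM in Cov. It was at 0.251 and 0.0744 FPKM in Ku at 250 nM and at 1.56 and 2.24 FPKM in Cov, above both DMSO libraries there, and was called in neither line (limma, adjusted p = 0.00155 in Ku and 0.0248 in Cov at 250 nM).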

How the data were processed

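RNA was sequenced from KURAMOCHI and COV362 cells after 6 hr of DMSO or THZ1, with 2 libraries per group. Per the labels and the study's methods, RNA was column-purified, ERCC spike-ins were added per cell number, and stranded polyA libraries were read as single ends. The authors used HISAT with the hg19 genome, then Cufflinks and Cuffnorm, and deposited 1 table of spike-in scaled FPKM for each line; versions, annotation and counting by strand are not given in the sources used here. Depth is unknown.

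Members were rows named SNORA or SCARNA above 1 FPKM in any library. The members and the gene lists were chosen with earlier results of these data known. For each line, log2(FPKM + 1) of the 14251 rows above 1 FPKM was fitted with limma 3.58.1 (R 4.3.3; eBayes with trend, 3 groups, Benjamini-Hochberg adjustment) and called at adjusted p under 0.001 and a log2 difference beyond 0.5. The study names a count test in its figure legends, which does not suit FPKM. Sums were compared with exact permutation tests. The limma step was tested on simulated data with normal noise and no loss of detection, so that test does not cover rows at the floor. P-values measure the spread between the 2 libraries of a group.

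Genes named were the 6 members highest in DMSO per line, those called higher, the 5 largest called falls at 250 nM per line, all SCARNA members, the 3 rows on each side of the 1 FPKM limit, their hosts, and genes of the core protein, assembly, Cajal body, 3′ maturation, telomerase and marker lists. Members named in addition, among them SNORA5C, SNORA8, SNORA9, SNORA65, SNORA71C, SNORA76, SNORA81 and SNORA84, were chosen after their values were seen. Sequences and hosts came from GRCh37 with GENCODE genes, and lengths and hosts of unplaced members from RefSeq.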

Additional observations from a re-analysis of the deposited data

Results flagged for a closer look

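SNORA72, in an intron of RPL30, gave differences of opposite sign in the lines at 50 nM. In Ku it stood at 71.8 and 20.1 FPKM in DMSO and at the floor in both 50 nM libraries, a fitted log2 difference of −5.16, and in Cov it was at the floor in both DMSO libraries and at 17.4 and 17.1 FPKM at 50 nM, a fitted difference of 4.015. Each fitted value has 1 group at the floor and depends on the pseudocount, and the difference between the lines was not tested, since their tables were normalized separately.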

How the results depend on the processing

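Numbers of members called moved with several settings. In Ku at 50 nM (6 lower, 2 higher) limma called 0 lower and 0 higher with no minimum FPKM, 3 and 1 with libraries scaled to an equal median, and 1 and 0 with only the 2 groups compared, and 1 was higher with median-of-ratios scaling and with no variance trend. Of all rows, 0.0127%, 0.589% and 0.0632% were called lower under the first 3 settings. In Cov, equal-median and median-of-ratios scaling each left 5 lower and 1 higher at 50 nM (0.154% and 0.772% of all rows lower) and 5 lower and 1 higher at 250 nM (11.3% and 18.9% of all rows lower). With only the 2 groups compared 20 were lower at 50 nM, and 24 lower and 2 higher at 250 nM (68.7% and 86.7% of all rows lower). At an adjusted p under 0.05 the lower calls numbered 12 and 22 in Ku and 26 and 25 in Cov, and the higher calls 4 and 2 in Cov (40.2% and 81.3% of all rows lower in Ku, 82% and 88.3% in Cov). Leaving other small RNA rows out of the fit gave 15 lower in Cov at 50 nM (78.6% of all rows) and 1 higher at 250 nM (0.121%), and a pseudocount of 0.1 gave 1 higher at 250 nM (0.119%). The causes were not tested. SNORA63 in Cov at 250 nM turned to 0.558 under equal-median and 0.101 under median-of-ratios scaling.

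Leaving out 1 library at a time gave 1 to 12 lower and 0 to 6 higher calls in Ku at 50 nM, and 8 to 19 lower and 0 to 4 higher at 250 nM. In Cov it gave 11 to 20 lower and 2 to 8 higher at 50 nM, and 12 to 24 lower and 1 to 5 higher at 250 nM. All rows called lower then made up 0.0421% to 0.919% and 42.7% to 63.5% in Ku, and 30.3% to 69.7% and 73.3% to 86.6% in Cov. A lone library of a group was then assumed to vary like the other groups. In Ku at 50 nM, 1 lower call was left without either 250 nM library or the second 50 nM library, 3 without the first 50 nM library and 12 without either DMSO library. At 250 nM in Ku, 14 and 19 were lower without the first and the second DMSO library. In Cov at 50 nM, 17 were lower without the first DMSO or the first 50 nM library, 20 without the second 50 nM library and 19 without either 250 nM library. In Cov at 250 nM, 20 were lower without the first DMSO library, 24 without either 50 nM library and 19 without the first 250 nM library. SNORA63 in Cov at 250 nM was not called without either DMSO library (limma, adjusted p = 0.00458 and 0.00506).

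Deviations of libraries with the same replicate number correlated between −0.00871 and 0.000345 in Ku and between −0.0703 and 0.0282 in Cov. This measure leaves out a shift that all rows share, so it cannot decide whether the numbers pair the libraries. The sum of all rows was larger in the second library of each group in Cov and in the first of each group in Ku. With the replicate number as a block, 6 members were lower and 2 higher in Ku at 50 nM, 9 and 0 at 250 nM, and in Cov 9 and 2, then 11 and 0, beside 6.94%, 66.6%, 51% and 78.6% of all rows lower and 0.0632%, 0.0421%, 0.0561% and 0.0702% higher. The median standard error of a member was 0.987 in Ku and 0.921 in Cov on the log2 scale, which limits what could be called. Over all rows, with the same 2 libraries a group, it was 0.119 and 0.106. The cause of the difference was not tested.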
